A study of Mus musculus with 14 samples.

Results

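*Lhx2* and *Lhx9* are a pair of related genes that encode LIM-homeodomain transcription factors. The 2 members were taken by symbol from the 31054 genes counted in each of 14 single-cell RNA-seq libraries of mouse *Atoh1*-lineage cells, and both were present in every library. The cells were sorted as tdTomato-positive and DAPI-negative. Controls (Ctrl) were *Atoh1* Cre/+; Rosa lsl-tdTomato/+ and mutants (Atoh1S193A/-) were *Atoh1* Cre/S193A; Rosa lsl-tdTomato/+, all on C57BL/6J. Cre takes the place of the *Atoh1* coding sequence, so controls carried a single working copy of *Atoh1*, and mutants carried only the S193A copy, in which a serine of ATOH1 is changed to alanine and the protein works less well. Hindbrains at E14.5 and E18.5 gave 3 libraries of each genotype at each stage, with 1 embryo per library and the same number for littermates, and dissected pontine nuclei of pooled control pups at P5 gave 2 libraries. The sort marks cells by Cre history, not by present *Atoh1* expression, and P5 held no mutant. Counts from the 3′ end cannot check the S193A change, so the genotypes rest on the labels.

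LIM-homeodomain proteins bind DNA through a homeodomain and bind cofactors of the LDB family through paired LIM zinc fingers, while LMO proteins compete for the same cofactors. In the spinal cord, LHX2 and LHX9 mark the *Atoh1*-derived dorsal interneurons called dI1, and they act there on *Robo3*, which encodes the receptor that lets commissural axons approach and cross the midline. In the hindbrain, *Atoh1*-positive progenitors of the rhombic lip give rise to granule cells and unipolar brush cells of the cerebellum, to pontine nucleus (PN) neurons and to many other brainstem neurons.

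In the GENCODE M21 annotation of GRCm38, *Lhx2* (ENSMUSG00000000247) lies at chr2:38339281-38369733 on the plus strand and *Lhx9* (ENSMUSG00000019230) at chr1:138825186-138848577 on the minus strand. The homeobox, the coding stretch that holds the homeodomain, is exonic and coding in both. It is split over exon 4 (chr2:38359966-38360103) and exon 5 (chr2:38368842-38368883) of the Lhx2-201 transcript, and over exon 6 (chr1:138832702-138832839) and exon 7 (chr1:138831583-138831624) of Lhx9-202. Both are shown 5′ to 3′ on the coding strand because they show how alike the genes are and yet how far their transcripts can be told apart. Capitals mark the bases that differ.
Lhx2: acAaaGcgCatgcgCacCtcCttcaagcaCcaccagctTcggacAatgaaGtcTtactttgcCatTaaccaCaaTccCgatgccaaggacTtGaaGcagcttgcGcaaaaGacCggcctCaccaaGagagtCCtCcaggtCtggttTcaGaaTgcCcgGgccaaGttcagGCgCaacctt
Lhx9: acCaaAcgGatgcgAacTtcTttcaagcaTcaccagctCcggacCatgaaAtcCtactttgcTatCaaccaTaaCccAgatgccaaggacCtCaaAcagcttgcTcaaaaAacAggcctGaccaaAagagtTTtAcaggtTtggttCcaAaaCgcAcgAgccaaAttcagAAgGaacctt

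Of the 180 homeobox bases 37 differed (79.4% were identical), 34 of them at the last position of a codon, and 0 of the 60 residues differed. The longest stretch of identical bases shared by any transcript of one gene with any of the other was 17. Within the last 500 bases of the longest transcript of each gene, near where a 3′ library reads, it was 9. Only 2 transcripts of each gene held the whole homeobox, and counts per gene do not tell those from the shorter-protein transcripts. The antisense genes Gm13584 and Gm27197 lie within *Lhx2* on the other strand.

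After filtering, 80250 of 150188 barcodes were kept (34425 at E14.5, 31819 at E18.5 and 14006 at P5), at a median of 12010.5 to 20922 unique molecular identifiers (UMIs) per cell and 3248 to 8726 cells per library. The WPRE sequence of the tdTomato reporter had a UMI in 81.3 to 97.6% of the kept cells of a library. Libraries of a stage shared 0.188 to 0.484% of the barcodes of the smaller library over 31 pairs. Litter 2 at E14.5 stood apart in both genotypes: a cluster led by *Nrgn* and *Evx1os* held 271 of its control cells against 1 and 0 in the other 2 controls, and 320 of its mutant cells against 1 and 6. By contrast, the *Atoh7* cluster held 15 of its control cells against 194 and 401. Because of this, values at E14.5 are given for each library, and those that turn on litter 2 are also given without it. Levels below are CPM, the UMIs of a gene per 1000000 UMIs summed over the cells of a group in a library, given for replicates 1, 2 and 3 in that order with the mean ± SD. CPM of a 3′ library were not scaled by length, so a level of *Lhx2* was compared with other levels of *Lhx2* and not with *Lhx9*.

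Both genes were highest at E14.5. Over all control cells *Lhx2* stood at 174, 227 and 113 CPM at E14.5 (171 ± 57.2, n = 3), at 6.14, 5.59 and 7.54 at E18.5 (6.42 ± 1.00, n = 3) and at 1.32 and 1.23 in the P5 pontine nuclei. *Lhx9* stood at 102, 207 and 122 CPM at E14.5 (144 ± 55.9, n = 3), at 17.2, 14.3 and 13.4 at E18.5 (14.9 ± 1.99, n = 3) and at 0.481 and 0.479 at P5. The stages did not overlap for either gene. From E14.5 to E18.5 in control hindbrain *Lhx2* fell by 4.81 on the log2 scale (SE 0.28, adjusted p = 0.000192) and *Lhx9* by 3.35 (SE 0.28, adjusted p = 0.000445). Here and below, the adjusted p is from edgeR's quasi-likelihood test with Benjamini-Hochberg adjustment over all genes tested, and a gene was called at an adjusted p under 0.05 with an absolute log2 change over 0.25. By that rule 51.6% of all genes tested were called between the stages, so a call alone sets neither gene apart. The 2 stages differ in their cell types as well, and with summed cells fewer cells of a type and less RNA per cell cannot be told apart. P5 tissue was dissected otherwise and was not tested against the embryos.

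Of the other 10 listed members of the LIM-homeodomain family, 2 had a UMI in enough of all cells (10%) to be tested between these stages, a limit that also leaves out genes restricted to a few cell types. *Lhx1* rose by 1.09 (log2), and *Lmx1a*, a rhombic lip factor, fell by 0.49. Among 10 LIM domain partners, all tested, 6 fell and 1 rose, where over all genes 51.6% were called (2724 up and 2582 down). *Ldb2*, which encodes a bridging cofactor, fell by 3.096, and *Lmo1*, *Lmo2* and *Lmo3* fell by 2.98, 1.84 and 1.43. *Rlim*, a ubiquitin ligase that acts on these complexes, rose by 0.26. Of 12 genes of *Atoh1*-lineage commissural neurons 6 fell and 3 rose, with *Robo3* (-3.37) and *Pou4f1*, a POU factor of early sensory and dI1 neurons (-3.56), lowest and *Barhl2*, a homeobox gene of the dI1 programme (+1.40), highest. The median change over all genes was 0.009.

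Within E14.5, the cells were split into 32 clusters, named here by leading genes. Because the clusters were made from the same counts, their levels are a description and were not tested. *Lhx2* and *Lhx9* were both highest in the cluster led by *Ppp1r17* and *Th*, the gene for tyrosine hydroxylase, which matched the markers of rostral, *Hox*-negative neurons. *Lhx2* there was 1018, 803 and 629 CPM in the control libraries (817 ± 195, n = 3) and *Lhx9* was 814, 1108 and 649 (857 ± 232, n = 3). The cluster held 2.57% of control cells, and 9.76% of the *Lhx2* and 12.5% of the *Lhx9* UMIs. Mutant libraries gave 1071, 694 and 768 CPM of *Lhx2* and 596, 1144 and 712 of *Lhx9* in the same cluster, overlapping the controls for both.

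**Figure D1:**
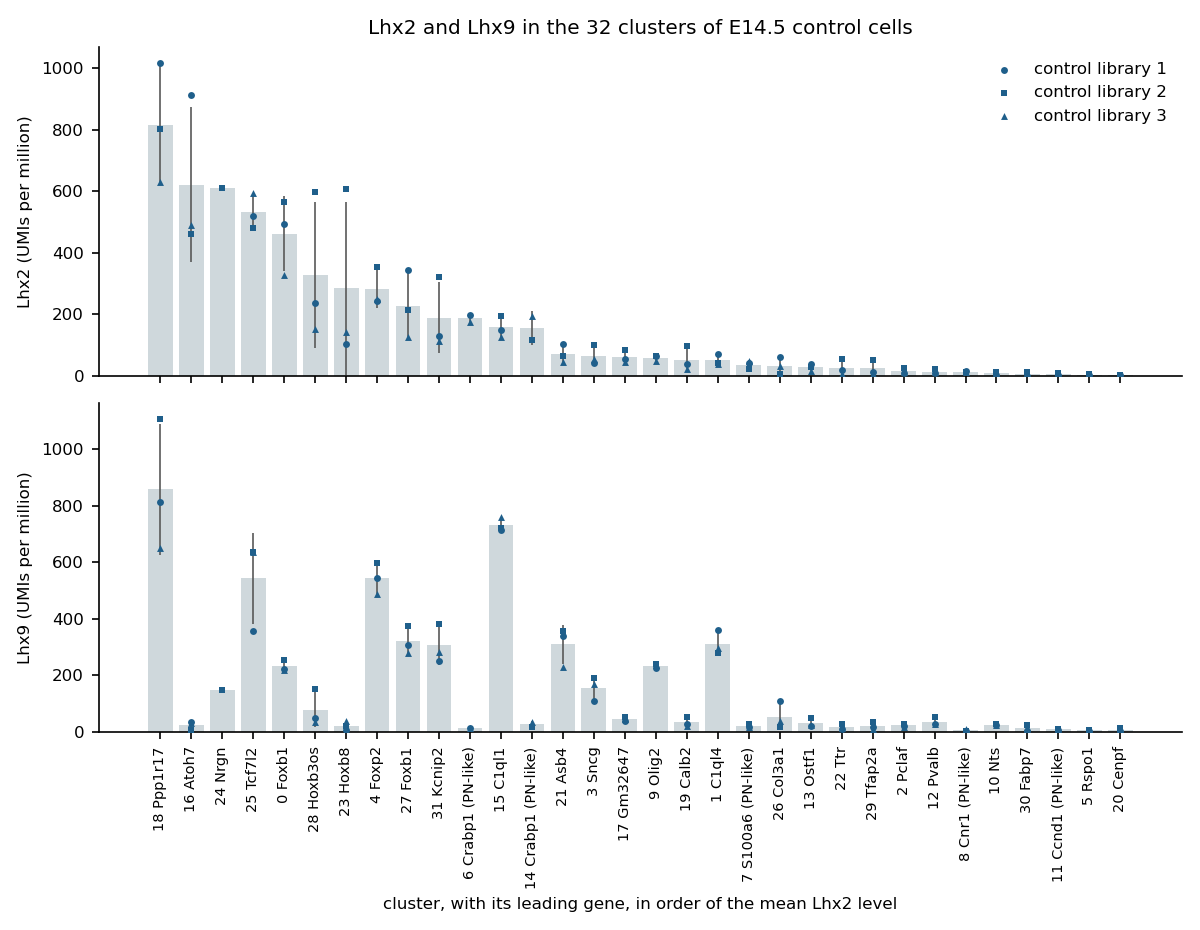
Level of *Lhx2* and of *Lhx9* (CPM) in each of the 32 clusters of E14.5 control cells, in order of the mean *Lhx2* level; bars are means, lines the SD, and circles, squares and triangles control libraries 1, 2 and 3 where they held at least 10 cells. Each cluster is labelled with its number and first leading gene. Both genes were highest in the *Ppp1r17*/*Th* cluster, while the *Atoh7* cluster was high in *Lhx2* and low in *Lhx9*.

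Below that cluster the orders of the genes parted. For *Lhx2*, the next was the *Atoh7* cluster, named after a proneural factor gene, with 912, 462 and 490 CPM (621 ± 252). *Lhx9* in those cells was 35.6, 6.69 and 29.8 CPM (24.0 ± 15.3), rank 20 among the clusters. The 1 control cluster with a single usable library, *Nrgn*/*Evx1os*, had 612 CPM of *Lhx2* and 149 of *Lhx9* in litter 2.

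The *Tcf7l2*/*Dbx1* cluster followed with 521, 480 and 596 CPM of *Lhx2* (532 ± 58.8). Next came a cluster led by *Foxb1* and *Ramp3* that carried caudal *Hox* genes, with 495, 565 and 327 (462 ± 122). Of these 4 clusters with all libraries, each overlapped its neighbour in the order of *Lhx2* levels. All of them lay above the *C1ql1*/*Dlk1* cluster, at 150, 196 and 126 CPM (157 ± 35.3). Other clusters lay between. Among them, the pooled control cells of the *Hoxb8*/*Hoxa7* cluster had 416 CPM of *Lhx2* and, like the *Atoh7* cluster, little *Lhx9* (19.1).

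For *Lhx9*, that *C1ql1*/*Dlk1* cluster, whose leading genes encode a secreted C1q-like protein and a Notch-like membrane protein, was second, at 715, 720 and 759 CPM (731 ± 23.9). It overlapped the *Ppp1r17*/*Th* cluster. The *Foxp2*/*Nr4a2* cluster (544, 598 and 487 CPM, 543 ± 55.7) and the *Tcf7l2*/*Dbx1* cluster (358, 637 and 635, 543 ± 161) came next and overlapped each other, below every library of the *C1ql1*/*Dlk1* cluster. Several clusters thus held *Lhx9* with less *Lhx2* relative to the top cluster. In the *C1ql4*/*Hs3st4* cluster *Lhx9* was 361, 277 and 295 CPM (311 ± 44.3) with *Lhx2* at 51.7 ± 18.1. In the cluster led by *Olig2*, a bHLH factor gene, *Lhx9* was 227, 241 and 235 CPM (234 ± 7.36) with *Lhx2* at 59.0 ± 9.39.

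Both genes were low in a cycling cluster led by *Cenpf* and *Htra1*, which had the lowest *Lhx2* of all, 2.52 ± 0.655 CPM, and 6.97 CPM of *Lhx9*. Another cycling cluster, led by *Pclaf*, was not as low, with 15.7 ± 8.3 and 22.6 ± 4.9 CPM. The roof plate-like cluster had 4.16 ± 1.13 CPM of *Lhx2* and 6.16 ± 2.71 of *Lhx9*. Other non-neuronal clusters were not as low: *Col3a1*/*Col1a2* cells had 32.5 ± 27.2 CPM of *Lhx2* and 53.5 ± 48.2 of *Lhx9*, and *Ttr*/*Kcne2* cells 26.4 ± 25.8 and 17.2 ± 9.72. The *Lhx2* UMIs of E14.5 control cells came most from the *Atoh7* cluster (20.8 ± 17.7%, with litter 2 at 0.519%) and the *Foxb1*/*Ramp3* cluster (20.7 ± 9.3%), and the *Lhx9* UMIs from the *Foxp2*/*Nr4a2* (16.1 ± 1.0%), *C1ql1*/*Dlk1* (12.6 ± 3.1%) and *Ppp1r17*/*Th* (12.5 ± 3.8%) clusters. The rest of both was spread over the other clusters.

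Across the 32 clusters the levels of *Lhx2* and *Lhx9*, as log2(CPM + 1), had a Pearson's r of 0.66. With *Slc17a6*, which encodes the vesicular glutamate transporter VGLUT2, r was 0.76 for *Lhx2* and 0.62 for *Lhx9*. With the summed level of *Hoxb2* to *Hoxb5*, which mark the caudal rhombic lip, r was 0.25 for *Lhx2* and -0.34 for *Lhx9*, and with *Pax6* it was -0.47 and -0.78. At E18.5 (28 clusters) *Lhx2* and *Lhx9* had an r of 0.32 (Spearman's rho 0.13), and the *Hoxb* sum gave 0.66 with *Lhx2* (rho 0.40) and 0.13 with *Lhx9* (rho 0.20). The clusters come from the same libraries and from one clustering, and these coefficients only describe them.

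By the same measure, the 5 genes most like *Lhx2* over the E14.5 control clusters were *Tmem163* (r = 0.89), *Gm27197* (0.82), *Asic1* (0.81), *Rbfox1* (0.79) and *Pak3* (0.79). *Gm27197* is one of the antisense genes inside *Lhx2*. Those most like *Lhx9* were *B630019K06Rik* (0.86), *Chordc1* (0.85), *Evx2*, a homeobox gene (0.83), *Wdr6* (0.82) and *AC118542.1* (0.81). At E18.5 they were *Gad2*, *Nrgn*, *Sorcs3*, *Prdm6* and *Hoxb4* for *Lhx2* (0.81 to 0.88) and *Shox2*, *Gfra1*, *Tfap2d*, *Gm26700* and *Rmst* for *Lhx9* (0.72 to 0.74).

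Detection in single cells was compared after each cell was thinned to 5000 UMIs. Of 15840 E14.5 control cells (328 were shallower and left out), 4445 had a UMI of *Lhx2*, 4875 one of *Lhx9* and 2283 both. That was 1.71 ± 0.23 times (SD, n = 3) the number that the product of both shares gives. Most of the 413 cells of the *Ppp1r17*/*Th* cluster had both genes: 368 had *Lhx2*, 393 had *Lhx9* and 348 had both. With so many cells positive for each gene the ratio could only be close to 1, so it is not read here.

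In the *Tcf7l2*/*Dbx1* cluster the ratio was 1.81 ± 0.40, with 146 cells with *Lhx2*, 149 with *Lhx9* and 132 with both among 286. *Lhx2* and *Lhx9* thus lay largely in the same cells of that cluster, leaving others with neither. In the *C1ql1*/*Dlk1* cluster 94.7% of cells with *Lhx2* also had *Lhx9*, which most cells of that cluster had. In the *Atoh7* cluster 475 of 608 cells had *Lhx2*, 82 had *Lhx9* and 59 had both, at a ratio of 0.93. For comparison, the roof plate-like cluster, where neither gene is a marker, had *Lhx2* in 1.11 ± 0.45% and *Lhx9* in 2.32 ± 2.10% of thinned cells at a median of 18810.5 UMIs before thinning. Shares at that level cannot be told apart from free RNA.

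**Figure D2:**
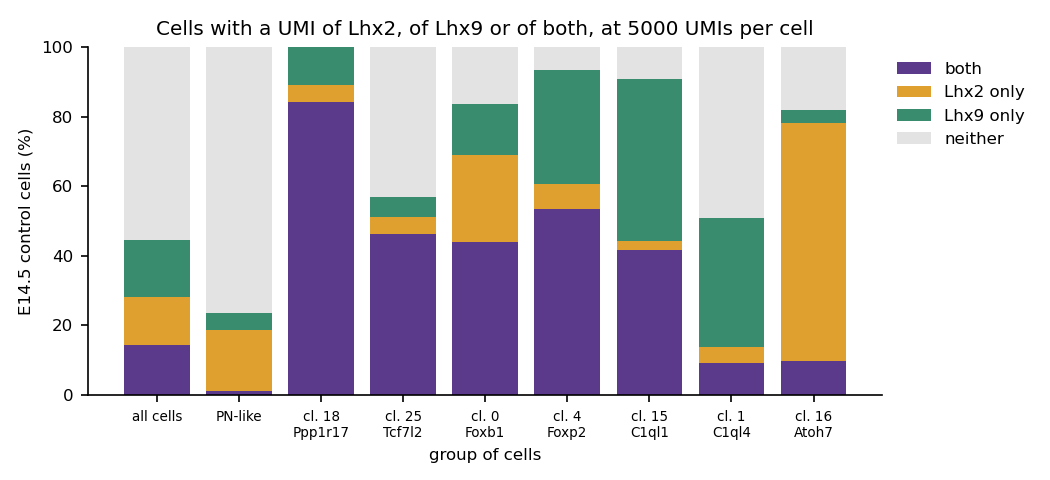
Percent of E14.5 control cells, thinned to 5000 UMIs and pooled over libraries, with a UMI of both genes, of *Lhx2* only, of *Lhx9* only or of neither, for all cells and for clusters. In the *Ppp1r17*/*Th* cluster 348 of 413 cells had both, in the *Atoh7* cluster 59 of 608.

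PN-like cells, the clusters with *Hoxb2* to *Hoxb5*, *Pax6* and *Barhl1* but little *Reln*, carry markers of the precursors and neurons of the pontine nuclei. The class was rebuilt from markers and need not hold the same cells as the study's. At E14.5 the study also used *Lhx2* to leave out cells of the external granule layer, a limit not set here since *Lhx2* is the gene described. Adding one took no cluster out at E14.5. There were 3266 control and 3979 mutant PN-like cells at E14.5, and 1732 and 1527 at E18.5. They were sorted into states by the study's own marker lists, which the study derived from these libraries. In E14.5 controls *Lhx2* followed the states: it was 4.26, 7.84 and 4.98 CPM in progenitors (5.70 ± 1.90) and 5.18, 11.9 and 2.01 in intermediate progenitors (6.36 ± 5.04), which did not differ beyond their spread.

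*Lhx2* was higher in the migrating states. It was 94.3, 112 and 62.1 CPM in migrating neurons-1 (89.5 ± 25.4) and 211, 106 and 243 in migrating neurons-2 (187 ± 71.8), and these overlapped, with litter 2 at 112 and 106. Differentiated neurons were lower again, at 21.9, 28.1 (from 20 cells) and 19.3 CPM (23.1 ± 4.52), below every library of both migrating states and above every library of both progenitor states. Within migrating neurons-2, a sub-cluster led by *Lhx2* itself with *Th* and *Nefm*, a neurofilament gene, had 384 and 353 CPM in the 2 control libraries with enough cells. *Lhx9* in PN-like cells was low throughout: the state means ran from 4.32 to 19.9 CPM in controls. Only 34 of 3256 thinned control PN-like cells had UMIs of both genes, against 612 with *Lhx2* and 190 with *Lhx9*, at a ratio of 0.913 ± 0.39.

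By E18.5 *Lhx2* in control PN-like cells was highest in 2 states. It was 46.97, 58.7 and 29.9 CPM in migrating neurons (45.2 ± 14.48) and 59.4, 36.3 and 66.5 in ePN1 (54.1 ± 15.8), a differentiated state of embryonic PN neurons with *Zbtb20* among its leading genes. These 2 did not differ beyond their spread. By its markers ePN1 joined a pair of sub-clusters: the *Zbtb20* one had 59.4, 26.5 and 56.5 CPM, and a smaller one of 109 cells led by *Lce3c* and *Crh*, with only 1 ePN1 marker among its leading genes, had 59.4, 63.1 and 94.9. Intermediate progenitors had 9.82 ± 5.72 CPM, ePN2 5.53, 2.16 and 2.71 (3.47 ± 1.80), ePN3 0.929 ± 0.492 and ePN4 0.513 ± 0.888. At P5, PN5 had 7.15 and 8.41 CPM of *Lhx2* and PN3 had 3.91 and 2.45, with PN1, PN2, PN4 and PN6 between 0.160 and 0.594 on average. PN3 joined 3 sub-clusters, and its *Lhx2* lay mostly in 1 of them: the *Prox1* sub-cluster had 8.23 and 6.03 CPM, overlapping PN5, and the other 2 had 1.37 ± 0.05 and 1.07 ± 0.54. In PN5, which *Nr2f2* and *Ly6d* led, 4.97 ± 0.89% of thinned cells had an *Lhx2* UMI. In the microglia-like P5 cluster 1 of 620 thinned cells had one. *Lhx9* was at most 0.42 CPM in the P5 subtypes.

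**Figure D3:**
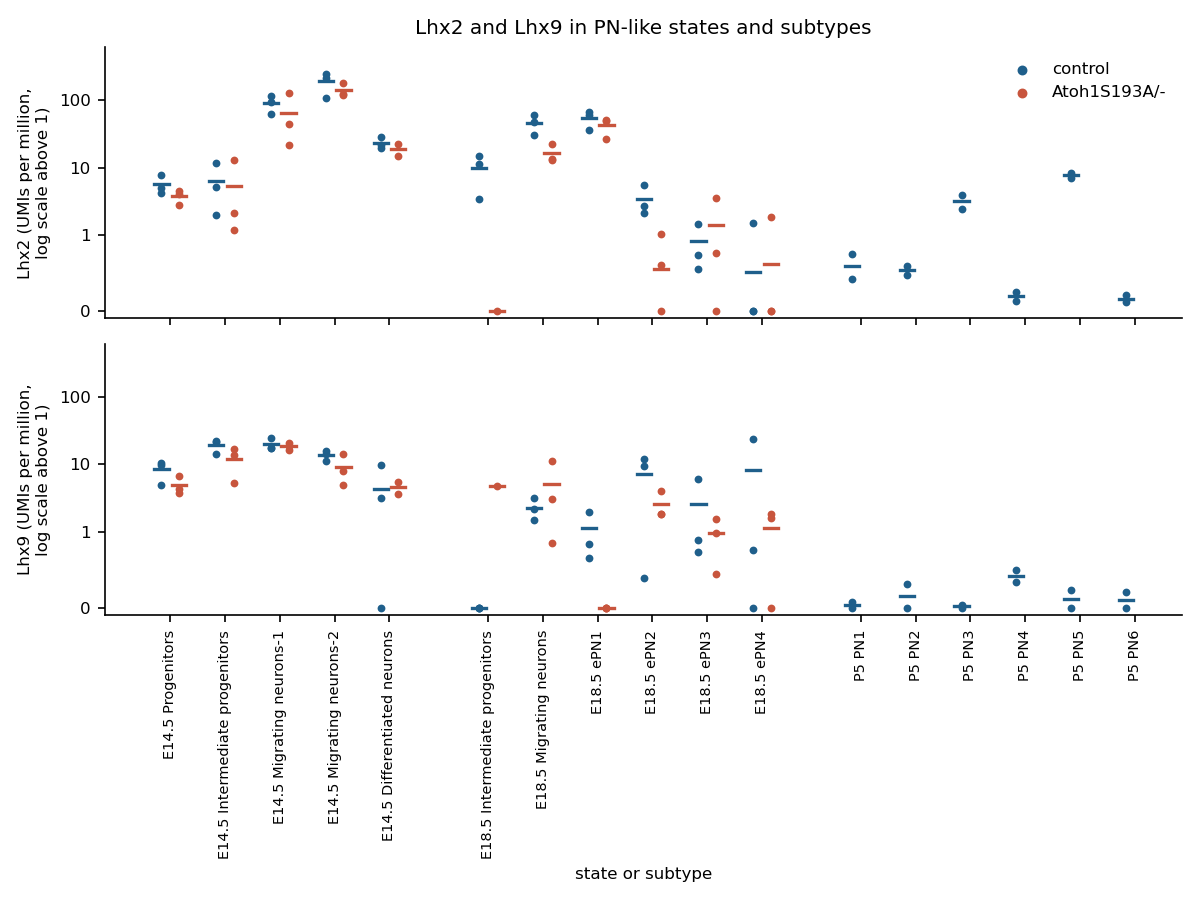
Level of *Lhx2* and of *Lhx9* (CPM, log scale above 1 and linear below) in each PN-like state or subtype at E14.5, E18.5 and P5, with 1 point per library of at least 10 cells, a dash at the mean, controls in blue and mutants in red. In controls *Lhx2* was highest in migrating neurons-2 at E14.5 (187 CPM on average), in ePN1 at E18.5 (54.1) and at P5 in PN5 (7.78) and the *Prox1* sub-cluster of PN3 (7.13, not drawn on its own), and *Lhx9* stayed under 20 CPM on average in every E14.5 state.

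The question put to the genotypes was what a weakened ATOH1 does to cells of its lineage. The clearest difference was in *Lhx2* of PN-like cells. At E18.5 controls had 21.8, 20.5 and 17.9 CPM (20.1 ± 1.98, n = 3) and mutants 6.09, 7.29 and 3.93 (5.77 ± 1.70, n = 3). The groups did not overlap, and within litters 1, 2 and 3 the mutant had 0.279, 0.355 and 0.220 of its littermate's level. Here and elsewhere, complete separation of 3 against 3 has by itself an exact two-sided permutation p of 0.1. How many of all genes separate in this way was not counted, so a lack of overlap alone does not set a gene apart. *Lhx2* entered the fits of this class through controls alone, since too few mutant cells had a UMI to meet the limit for testing. Without thinning, 13.5% of control and 4.51% of mutant PN-like cells had one on average. The log2 change was -1.85 (SE 0.19, edgeR adjusted p = 0.0776) and did not pass. No other gene passed either (0% of 9937 called), while 342 had an unadjusted edgeR p under 0.05. With the litter as a block the change was -1.87 (SE 0.14, edgeR adjusted p = 0.000128, with 0.332% of genes called), and DESeq2 gave an adjusted p of 2.26e-12 (0.0906% called). The call in this class therefore rests on the fit.

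In 1 cluster it did not: *Lhx2* fell in the largest PN-like cluster of E18.5, led by *Cntnap5a* and *Gabrg1*. Controls had 14.4, 9.68 and 14.9 CPM there and mutants 4.14, 2.01 and 3.27. The change was -1.98 (SE 0.24, edgeR adjusted p = 0.0169), beside 0.0812% of genes called in that cluster. The adjusted p was 0.0507, 0.0953, 0.0978 and 0.151 without Ctrl 1, Ctrl 3, mutant 2 and mutant 3 respectively, with the change between -2.20 and -1.83 throughout. The make-up of this cluster differed between genotypes: ePN1 cells, which held most of its *Lhx2* UMIs, were 22.3 ± 2.2% of it in controls and 8.38 ± 0.82% in mutants (exact p = 0.1). For pooled cells of the cluster, the shares of UMIs per state alone moved its level by -0.93 and the levels within states alone by -0.74. Its ePN1 cells had 49.7, 39.9 and 58.6 CPM in controls and 55.4, 26.6 and 26.3 in mutants, overlapping. The other 2 E18.5 clusters where *Lhx2* could be tested did not pass. In the PN-like *Crabp1*/*Robo3* cluster controls had 60.3, 73.2 and 43.2 CPM and mutants 12.8, 36.0 and 21.1, without overlap (-1.61, SE 0.31, edgeR adjusted p = 0.264, 0% of genes called), and with the litter block it passed (-1.60, edgeR adjusted p = 0.0155, 0.0633% called). For its pooled cells the shares of UMIs per state alone moved the level by -0.14 and the levels within states alone by -1.61. In the *Zfhx3*/*Meis2* cluster, outside the PN-like class, the change was -0.13 (SE 0.17, edgeR adjusted p = 1, 0.00963% called).

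Of the 2 states with most *Lhx2* at E18.5, migrating neurons had 46.97, 58.7 and 29.9 CPM in controls and 12.8, 22.6 and 13.6 in mutants (16.3 ± 5.46), again without overlap. Here too *Lhx2* entered the fits through controls alone, with a UMI in 19.7% of control and 8.81% of mutant cells on average without thinning. The change in migrating neurons was -1.55 (SE 0.27, edgeR adjusted p = 0.116, 0% of genes called). With the litter block the adjusted p was 0.000582, beside 0.115% called. In ePN1 the mutants had 50.6, 48.8 and 26.9 CPM (42.1 ± 13.2), overlapping the controls, with a change of -0.49 (SE 0.26, edgeR adjusted p = 1, 0% called). Fewer cells were in ePN1 in mutants, 103 against 327 in controls. When each state kept its control level and only the shares of UMIs per state were those of mutants, the PN-like level moved by -0.61 (log2). When only the levels changed it moved by -0.97, out of -1.83 in all for pooled cells. By its markers the migrating state joined a pair of sub-clusters, of 312 cells led by *Robo3* and 307 led by *Cadps2*. Over both genotypes their mean log values of *Lhx2* were 0.65 and 0.11 of the highest sub-cluster's. A different mix of them would count as a level here, and this was not tested.

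**Figure D4:**
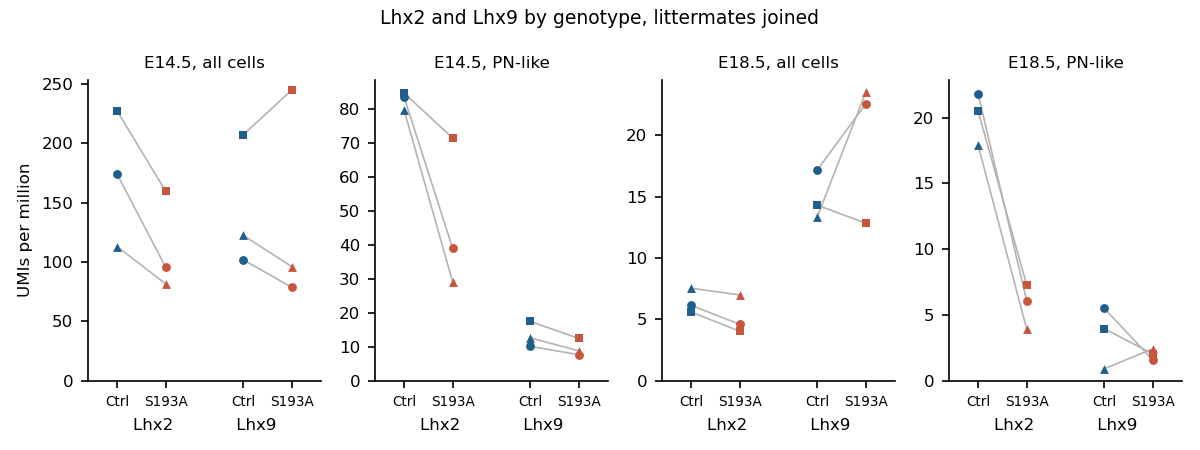
Level of *Lhx2* and of *Lhx9* (CPM) in control and mutant libraries, over all cells and PN-like cells at E14.5 and E18.5. Circles, squares and triangles are litters 1, 2 and 3, and lines join littermates. *Lhx2* in E18.5 PN-like cells was 17.9 to 21.8 in controls and 3.93 to 7.29 in mutants.

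The share of cells with a UMI gave the same order. At 5000 UMIs per cell, 5.79, 7.85 and 7.25% of E18.5 control PN-like cells had *Lhx2* (6.96 ± 1.06%) against 2.76, 2.47 and 2.29% of mutant ones (2.51 ± 0.24%). The exact two-sided permutation p was 0.1, the smallest that 3 against 3 allows. Without thinning the shares were 13.5 and 4.51%. In a unipolar brush cell-like cluster of the same libraries, led by *Calb2* and *Tac2*, 0.52% of thinned control cells had an *Lhx2* UMI, so the mutant PN-like share lay above that level. For migrating neurons the shares were 10.9 ± 3.4 and 5.58 ± 0.68% at 5000 UMIs (exact p = 0.1) but 5.30 and 5.06% at 3000. *Lhx9* in E18.5 PN-like cells was 5.48, 3.95 and 0.902 CPM in controls and 1.57, 2.02 and 2.42 in mutants, overlapping and in too few cells to test.

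At E14.5 PN-like cells had 83.6, 84.8 and 79.8 CPM of *Lhx2* in controls (82.7 ± 2.599) and 39.0, 71.5 and 29.0 in mutants (46.5 ± 22.2). Every mutant was below every control, litter 2 least. The change was -0.87 (SE 0.29, edgeR adjusted p = 0.122), where 6.58% of genes were called. With the litter block it was -0.96 (SE 0.20, edgeR adjusted p = 0.0148, 24.5% of genes called) and DESeq2 gave an adjusted p of 0.0130 (12.7% called). Without litter 2 it was -1.29 (SE 0.15, edgeR adjusted p = 0.00503, 7.32% called). *Lhx9* in the same cells was 10.1, 17.4 and 12.6 CPM in controls and 7.62, 12.4 and 8.78 in mutants, a change of -0.52 (SE 0.25, edgeR adjusted p = 0.261), or -0.51 with the litter block (SE 0.10, edgeR adjusted p = 0.0119). Each mutant was lower than its littermate for both genes, but under the block 24.5% of all genes passed.

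No E14.5 state was called for either gene. The log2 change of *Lhx2* was -0.53 in migrating neurons-1, -0.48 in migrating neurons-2 and -0.67 in progenitors, and that of *Lhx9* was -0.71 in intermediate progenitors, -0.13 and -0.59 in migrating neurons-1 and migrating neurons-2, and -0.84 in progenitors. Genes called in those fits were 0.00992% in progenitors, 0.0109% in intermediate progenitors and 0% in both migrating states. Progenitor levels were near background: pooled control cells of the *Ccnd1* progenitor cluster had 6.06 CPM of *Lhx2* and 8.73 of *Lhx9*. The roof plate-like cluster had 4.39 and 6.78. Progenitor changes in either gene therefore cannot be told apart from free RNA, and *Lhx9* was low in every PN-like state. With control levels and mutant shares of states, *Lhx2* of E14.5 PN-like cells moved by -0.48, and with mutant levels and control shares by -0.42, out of -0.93. The share of thinned cells with *Lhx2* was 19.1 ± 1.9% in controls and 12.4 ± 6.3% in mutants (exact p = 0.3). With *Lhx9* it was 5.91 ± 1.10 and 3.91 ± 0.62% at 5000 UMIs (exact p = 0.1), but the groups overlapped at 3000 UMIs (3.58 and 2.92%, exact p = 0.4) and without thinning (16.5 and 13.5%, exact p = 0.4).

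Among the other genes of the pathway in E14.5 PN-like cells, 2 of 9 tested LIM partners fell, *Lmo1* (-1.51, edgeR adjusted p = 0.0199) and *Lmo2* (-0.56, edgeR adjusted p = 0.0244), and 0 passed in the other direction. Both encode LIM-only proteins. Of 12 commissural neuron genes 2 fell, *Barhl1* (-0.59, edgeR adjusted p = 0.0317), a homeobox gene that was also used to choose these cells, and *Slc17a6* (-0.52, edgeR adjusted p = 0.0210). Of 5 tested LIM-homeodomain genes none passed. The median changes were -0.08, -0.36 and -0.41 for the 3 lists and 0.006 for all genes. The states were not alike between genotypes: 263 of 3266 control and 1161 of 3979 mutant PN-like cells were progenitors, and the progenitor cluster led by *Ccnd1* held 1.74 ± 0.43% of all control and 6.61 ± 1.74% of all mutant cells (exact p = 0.1). Its part in the changes of these neuronal genes was not tested. Those 4 calls stand beside the 6.58% of all genes called in that fit. With the litter block, where 24.5% of all genes were called, 8 commissural genes were called lower and 0 higher. Among the partners that fit called *Lmo1* and *Lmo2* lower and *Ssbp2*, which encodes an LDB-binding protein, higher (+0.54, edgeR adjusted p = 0.0146). At E18.5 none of 9 partners, 11 commissural genes and 2 LIM-homeodomain genes passed in PN-like cells, where 0% of all genes passed. With the block, where 0.332% of all genes passed, *Lhx2* did, and so did *Nhlh2*, a neuronal bHLH gene (-0.35).

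**Figure D5:**
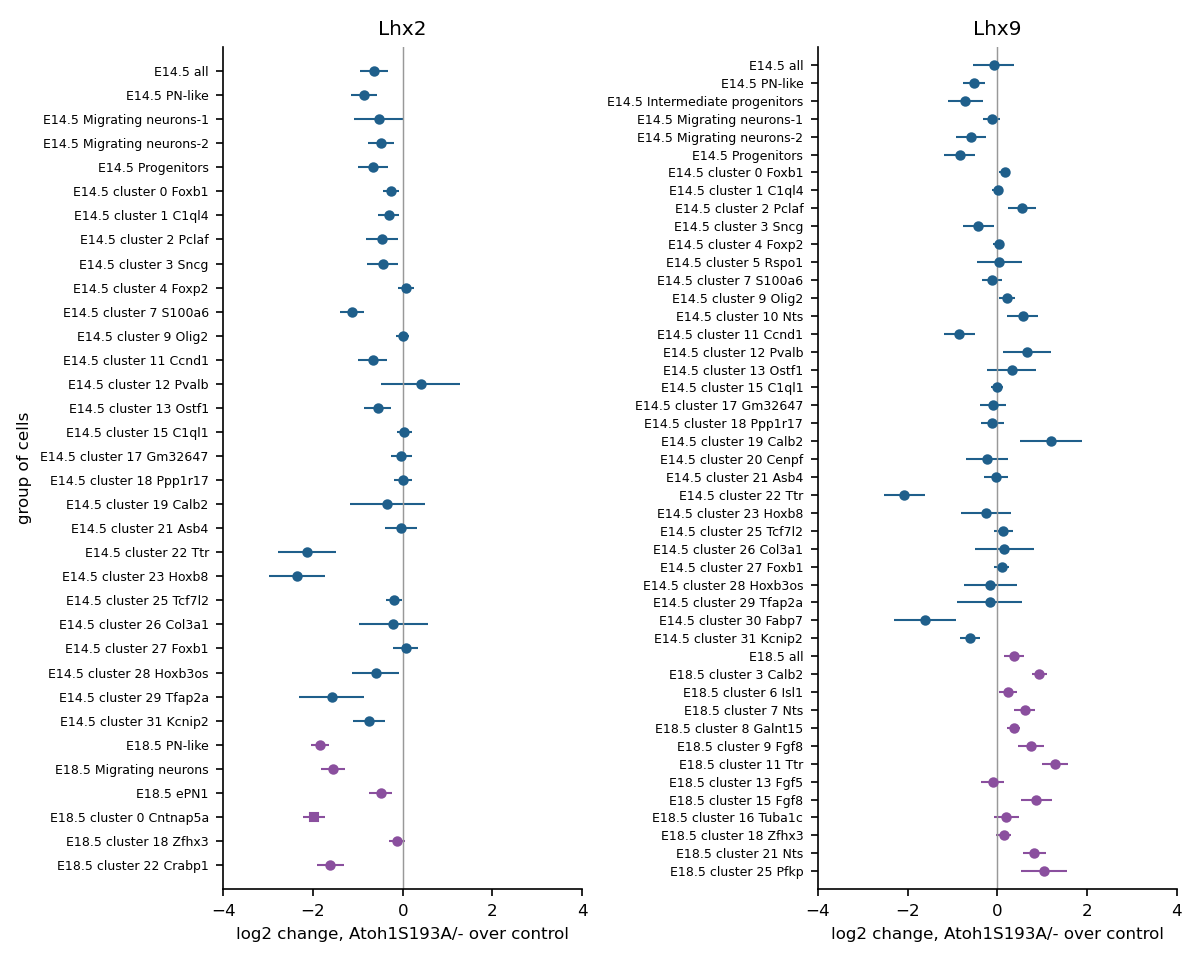
Log2 change of *Lhx2* and of *Lhx9* between mutant and control in each group that could be tested. Bars are the SE derived from the F statistic of the edgeR test. Squares passed the test, blue is E14.5 and purple E18.5. The 1 group that passed was the *Cntnap5a*/*Gabrg1* cluster of E18.5 for *Lhx2* (-1.98).

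Over all E14.5 cells, *Lhx2* was 95.5, 160 and 81.5 CPM in mutants (112 ± 41.6), a change of -0.64 from controls (SE 0.31, edgeR adjusted p = 0.468, 0.00977% of genes called). For pooled cells it was -0.60, of which the shares of UMIs per cluster alone gave -0.37 and the levels within clusters alone -0.24. Clusters with little *Lhx2* went both ways. The *Ccnd1* cluster held 6.61% of mutant and 1.74% of control cells, and the roof plate-like one 6.91 and 2.73% (exact p = 0.1 for each). The *Cnr1*/*Kctd12* cluster held 3.89 and 5.51% (exact p = 0.5), and the *Pvalb*/*Carnmt1* one 4.04 and 4.66% (exact p = 0.7). E14.5 controls 1 and 2 were counted with an older Cell Ranger than the rest, and with control 3 alone the change was -0.09, against -0.85 in PN-like cells. Each mutant lay below its littermate but the groups overlapped, and with the litter block the adjusted p was 0.00481 (edgeR, 17.6% called). *Lhx9* was 78.5, 245 and 96.0 CPM (140 ± 91.4), a change of -0.08 (SE 0.46, edgeR adjusted p = 0.958), and it was higher than its littermate only in litter 2. Over all E18.5 cells *Lhx2* was 4.59, 4.03 and 6.98 CPM in mutants (5.20 ± 1.57), with a UMI in too few cells for the test. *Lhx9* was 22.6, 12.8 and 23.5 CPM (19.7 ± 5.92), a change of +0.38 (SE 0.22, edgeR adjusted p = 1, 0% called). The genotype effect was not shown to differ between stages, by 0.33 for *Lhx2* (SE 0.42, edgeR adjusted p = 0.901) and by 0.47 for *Lhx9* (SE 0.57, edgeR adjusted p = 0.894), again with 0% of genes called. That test was over all cells, and the stages were not tested against each other within PN-like cells.

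*Lhx2* could be tested in 23 E14.5 clusters and *Lhx9* in 27, and 0 were called for either gene (4 for each at an unadjusted edgeR p under 0.05, and 1 for each by DESeq2). In these fits 0.774 to 6.25% of all genes had such a p. The DESeq2 calls were *Lhx2* in the PN-like *S100a6* cluster (59 of 9205 genes called) and *Lhx9* in the *Ttr*/*Kcne2* cluster (41 of 10706, all lower). For *Lhx2* 18 values were lower and 5 higher in mutants (-2.35 to 0.40), and for *Lhx9* 14 were lower and 13 higher (-2.08 to 1.19). The lowest *Lhx9* value was in the *Ttr*/*Kcne2* cluster, named for genes of choroid plexus, with 11.2, 28.4 and 12.01 CPM in controls and 0.988, 5.96 and 3.93 in mutants (-2.08, edgeR adjusted p = 0.178, 0.121% called). With the litter block it was -2.02 (edgeR adjusted p = 0.00766, 0.859% called). The called genes of this cluster went almost all the same way: 13 of 13 were lower in mutants, and 89 of 92 with the block. Without litter 2, 0 genes were called there. The cluster held 0.772% of control and 2.91% of mutant cells (exact permutation p = 0.1). A fall there is thus not particular to *Lhx9*.

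The other 3 clusters did not pass without that block in edgeR. In the PN-like *S100a6* cluster *Lhx2* changed by -1.16 with it (edgeR adjusted p = 0.0233, 2.69% called), and there DESeq2 without a block passed too (-1.11, adjusted p = 0.0117). With the block it changed in the *Hoxb3os*/*Pvalb* cluster by -0.68 (edgeR adjusted p = 0.000316, 2.29% called). The direction of *Lhx2* in that cluster was not stable over other fits. It turned to a rise in some fits with a library left out, and with libraries of a single Cell Ranger version (values below). In the *Kcnip2*/*Sox7* cluster, again with the block, *Lhx2* changed by -0.79 and *Lhx9* by -0.65 (edgeR adjusted p = 0.0391 and 0.0438, 0.165% called).

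*Lhx9* at E18.5 was above control in the mutant means of 11 of the 12 clusters tested (-0.10 to 1.28), and 0 were called, with 8 at an unadjusted edgeR p under 0.05 and 1 called by DESeq2. In the fits of these clusters 3.01 to 8.23% of all genes had such a p. The DESeq2 call was in the *Ttr*/*Nts* cluster, where 41 of 9231 genes were called. The clusters come from the same 6 embryos, over all cells the mutant of litter 2 had 0.897 of its littermate's level, and in PN-like cells the pooled level was lower in mutants (-0.52). In the unipolar brush cell-like *Calb2*/*Tac2* cluster controls had 15.95, 13.5 and 11.4 CPM and mutants 28.6, 23.9 and 27.7, without overlap, a change of +0.94 (SE 0.16, edgeR adjusted p = 0.187, 0% called). With the litter block its adjusted p was 0.0185 (edgeR, 0.146% called). In the *Ttr*/*Nts* cluster controls had 23.7, 15.5 and 12.4 CPM and mutants 61.3, 25.5 and 30.6 (+1.28, SE 0.29, edgeR adjusted p = 0.126, 0.303% called), and the block gave +1.18 (edgeR adjusted p = 0.000173, 1.17% called). Taking mutant shares and control levels for all clusters left the all-cell *Lhx9* of E18.5 at a change of 0.001, and mutant levels with control shares gave +0.44.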

How the data were processed

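Per the labels, *Atoh1*-lineage cells were profiled in droplets (10x Genomics, 3′ chemistry v3.1). The deposited matrices hold UMI counts per gene and barcode, made by the authors with Cell Ranger on mm10 plus the WPRE sequence (version 3.1.0 by the file headers of E14.5 controls 1 and 2, 5.0.1 by those of the other 12 libraries, and 5.0.1 in the submitters' processing notes). Such a change of version can move counts between libraries. Barcodes with at least 1000 genes and under 5% mitochondrial UMIs were kept, and the 7.5% highest Scrublet scores of each library were removed as doublets. Per stage, cells were normalised to 10000 UMIs and log-transformed, and 2000 variable genes (without the listed genes), 30 principal components and 15 neighbours gave Leiden clusters at resolution 1.0 (scanpy 1.11.5). PN-like clusters had at least 4 of 6 markers above their mean over clusters, *Reln* at most 0.5 of its highest mean and, in embryos, a mean *Pax6* log value of at least 0.5, and these limits were set after cluster means were seen.

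UMIs were summed per library and group, and tested with edgeR 4.0.16 (quasi-likelihood, TMM) in groups of at least 10 cells in every library. A gene was tested where 10% or more of the cells of either genotype, or of any compared group, held a UMI of it. It could thus enter a test only through the side where it was higher. The SE given with an edgeR change is the absolute log2 change divided by the square root of its F statistic. DESeq2 1.42.0 was an alternative. The study compared single cells, whereas here libraries were compared. Replicate numbers mark litters, per the protocol, and same-numbered libraries deviated together (r 0.53, 0.82 and 0.74 at E14.5, and 0.78, 0.82 and 0.92 at E18.5), so a litter block was an alternative fit. With 1 embryo per library, p-values rest on 3 embryos per group. Sequences were read from GENCODE M21 transcripts. The genes named are *Lhx2*, *Lhx9*, 3 lists (LIM-homeodomain genes, LIM partners, commissural neuron genes), the 5 genes most like each over clusters with at least 10 CPM in 1 cluster, and leading genes of clusters. The members and lists were chosen with earlier results of these data known. Other alternatives were RLE size factors, no count filter, every barcode, a mitochondrial limit of 10%, a PN-like gate with an *Lhx2* limit of 0.4 of its highest mean, libraries of 1 Cell Ranger version, resolution 2.0, thinning to 3000 UMIs, and each library left out. Leaving out litter 2 of E14.5 in both genotypes was chosen after seeing the data.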

Additional observations from a re-analysis of the deposited data

How the results depend on the processing

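Over 43 results, 384 of 454 values under an alternative kept their direction and their side of the threshold, 36 came to pass it, 4 no longer passed and 30 turned in direction. All 4 lost calls were *Lhx2* in the E18.5 *Cntnap5a*/*Gabrg1* cluster with 1 library left out. The cause was not tested for any of these.

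With the litter as a replicate block, *Lhx2* passed in all E14.5 cells (-0.64), E14.5 PN-like cells (-0.96), E18.5 PN-like cells (-1.87) and E18.5 migrating neurons (-1.55), and *Lhx9* in E14.5 PN-like cells (-0.51). Over all E14.5 genes the block raised the calls from 1 to 1802, and over those of E14.5 PN-like cells from 664 to 2473. DESeq2 called *Lhx2* in E14.5 PN-like cells (-0.89), E18.5 PN-like cells (-1.84) and migrating neurons (-1.52). Without the filter on low counts, the last 2 had -1.85 and -1.56. The PN-like gate with a limit on *Lhx2* gave -1.77 at E18.5, where it selects cells by the gene tested and is not the study's gate, and resolution 2.0 gave -1.66 for migrating neurons. Without litter 2, a choice made after seeing the data, *Lhx2* of E14.5 PN-like cells had -1.29 and *Lhx9* of migrating neurons-1 turned to 0.16.

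With only libraries from Cell Ranger 5.0.1, *Lhx9* turned to 0.11 in all E14.5 cells, 0.046 in migrating neurons-1, 0.037 in the *S100a6* cluster and 1.02 in the *Hoxb3os*/*Pvalb* cluster, and *Lhx2* to 0.56 in the last and 0.20 in the *Ttr*/*Kcne2* cluster. That setting leaves E14.5 with 1 control.

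Leaving out 1 library at a time gave -0.73 to 0.28 for *Lhx9* of all E14.5 cells, -0.24 to 0.071 for *Lhx9* of migrating neurons-1, -1.33 (without mutant 2) to -0.62 for *Lhx2* of E14.5 PN-like cells, and -1.81 to -1.28 for *Lhx2* of E18.5 migrating neurons, which passed without Ctrl 3. In the *Hoxb3os*/*Pvalb* cluster it gave -1.59 to 0.22 for *Lhx2* and -1.61 to 0.82 for *Lhx9*, in the *S100a6* cluster -0.28 to 0.11 for *Lhx9*, and in the E18.5 *Zfhx3*/*Meis2* cluster -0.32 to 0.096 for *Lhx2* and -0.065 to 0.31 for *Lhx9*. For the mutant minus control difference in cells with a UMI it gave -10.4 to 3.11 percentage points (*Lhx9*, all E14.5 cells), -0.24 to 0.20 (*Lhx2*, all E18.5 cells), -0.60 to 0.10 (*Lhx9*, E18.5 PN-like cells) and -0.17 to 0.58 (*Lhx9*, E18.5 migrating neurons). Thinning to 3000 UMIs turned the second to 0.054, and no thinning turned the third to 0.061 and the last to -0.55. At E18.5 *Lhx2* had 1670 UMIs over all control and 1243 over all mutant cells.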

Other observations

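At E18.5, 1 small cluster held much of both genes. The *Zfhx3*/*Meis2* cluster had 2.25% of control cells and 37.3 ± 5.7% of their *Lhx2* and 37.4 ± 6.2% of their *Lhx9* UMIs. *Lhx2* there was 120, 91.1 and 70.6 CPM in controls and 76.5, 86.5 and 92.6 in mutants, and *Lhx9* was 241, 266 and 153 in controls and 239, 252 and 235 in mutants, overlapping for both. Of its 333 thinned control cells 64 had *Lhx2*, 134 had *Lhx9* and 47 had both, 1.83 ± 0.40 times the number that the product of the shares gives. Among the next clusters for *Lhx9* were a unipolar brush cell-like one led by *Galnt15* and *Ebf2* (37.7 ± 3.0 CPM) and a granule lineage-like one led by *Isl1* and *Tlx3* (29.0 ± 5.16 CPM).

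At P5 *Lhx9* was highest in an inhibitory neuron-like cluster of 76 cells led by *Meis2* and *Slc32a1*, which encodes the vesicular transporter of GABA and glycine. It had 65.1 and 71.6 CPM of *Lhx9* in the 2 libraries, and 9.14 and 1.75 CPM of *Lhx2*. Neither value had a comparison in the design.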
